A study of Homo sapiens with 6 samples.

Results

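The translation factors of HK-2 cells were examined in 6 RNA sequencing libraries, 3 from cells carrying a circAASS overexpression plasmid and 3 from cells carrying the empty vector. HK-2 is an immortalised line of human kidney proximal tubule cells, and circAASS is named as a circular RNA made from AASS. Cells of both groups had spent 24 h in 1% oxygen and 12 h of reoxygenation per the sample labels (the design text of the series gives 24 h after hypoxia and reperfusion), so no library shows the factors without that stress. The labels give the genotype of the line as WT, name no promoter for the plasmid and do not say whether the 3 repeats of a group were separate cultures, so that the p-values rest on library-to-library spread, which may be technical. The factors were taken by gene name from a table of 35035 genes: names of eukaryotic initiation factors (EIF1 to EIF6) and of the elongation factor families EEF1 and EEF2, plus PABPC1, PABPC4, ETF1, GSPT1 and PDCD4. Of 163 names that met this rule, 4 eIF2 kinase genes, 93 names ending in P and a digit, as pseudogenes do, and 1 Y-linked copy were dropped, which left 65 genes. The name rule asks for a letter or digit after EEF2, so EEF2 itself is not among the 65 and is described with the other genes of the pathway.

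A ribosome starts on most messenger RNAs at the cap. The cap-binding factor eIF4E, the scaffold eIF4G and the helicase eIF4A recruit a small ribosomal subunit that already carries eIF3, eIF1, eIF1A and the ternary complex, in which eIF2 holds GTP and the initiator tRNA. After the start codon is found, eIF5 and eIF5B let GTP be hydrolysed and the large subunit join, and eIF2B reloads eIF2 with GTP. Elongation uses eEF1A to bring aminoacyl-tRNA, eEF2 to move the ribosome and eIF5A to ease difficult peptide bonds. Termination uses eRF1 (ETF1) with the GTPase eRF3 (GSPT1). Oxygen shortage is known to lower protein synthesis through phosphorylation of eIF2, of eEF2 by eEF2 kinase and through binding of eIF4E by the 4E-BP proteins; RNA levels measure none of these modifications.

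Of the 65 genes, 63 had enough reads to be tested and 2 did not (EIF4E1B, with 1 read in 1 library, and EIF2S3L, with 4 to 14 reads a library). The reads of these 2 genes rest on the smallest length that gave whole reads, so the true numbers may be larger. Leaving EIF2S3L untested depends on that choice. With circAASS, 21 rose, 5 fell and 37 did not pass the test at an adjusted p of 0.05. Over all 19350 genes tested, 32.3% passed, 16% being higher and 16.3% lower. By direction the factors stood at 21 to 5, against 3091 to 3152 over all tested genes. Translation factors are mostly well expressed, and of the 13474 genes that averaged 1 RPKM or more (reads per kilobase of gene, scaled to library size) 39.1% passed in a fit of those genes alone, 21.6% higher and 17.6% lower. In that fit 23 factors were higher and 4 were lower, of 60. The number of calls was thus close to that of all genes at these levels, and the direction of the calls was uneven.

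The fold changes of the factors centred above 0. Their median log2 fold change was 0.14, against -0.01 over all tested genes, and 50 of the 63 (79.4%) were positive, against 48.8% of all tested genes. Above that mean of 1 RPKM the medians were 0.14 for the 60 factors and 0.03 for all, with 54.1% of all positive. Deposited RPKM of the groups did not overlap in 33 of the 63, against 47.5% of all tested genes. Reads of the 65 genes made up 1.99%, 2.06% and 2.00% of the circAASS libraries, against 1.94%, 1.91% and 1.93% of the empty-vector libraries. The circAASS libraries were thus all above the empty-vector ones, by a small margin.

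Fold changes were computed after trimmed-mean scaling, with factors of 0.958, 0.971 and 0.996 for the circAASS libraries and 1.02, 1.02 and 1.04 for the empty-vector libraries, which moves a fold change slightly above the ratio of the RPKM given in the text. The pseudocount of 0.1 RPKM pulls fold changes of low genes towards 0, and for genes under about 1 RPKM (such as EIF4E3, ANGEL1 and EEFSEC) this is the larger shift. With library size alone as the scaling, 14 factors rose and 7 fell, their median was 0.07, and 31.9% of all genes passed, with 11.2% higher and 20.8% lower. Calls that are lost with library size alone are named beside the genes concerned.

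**Figure D1:**
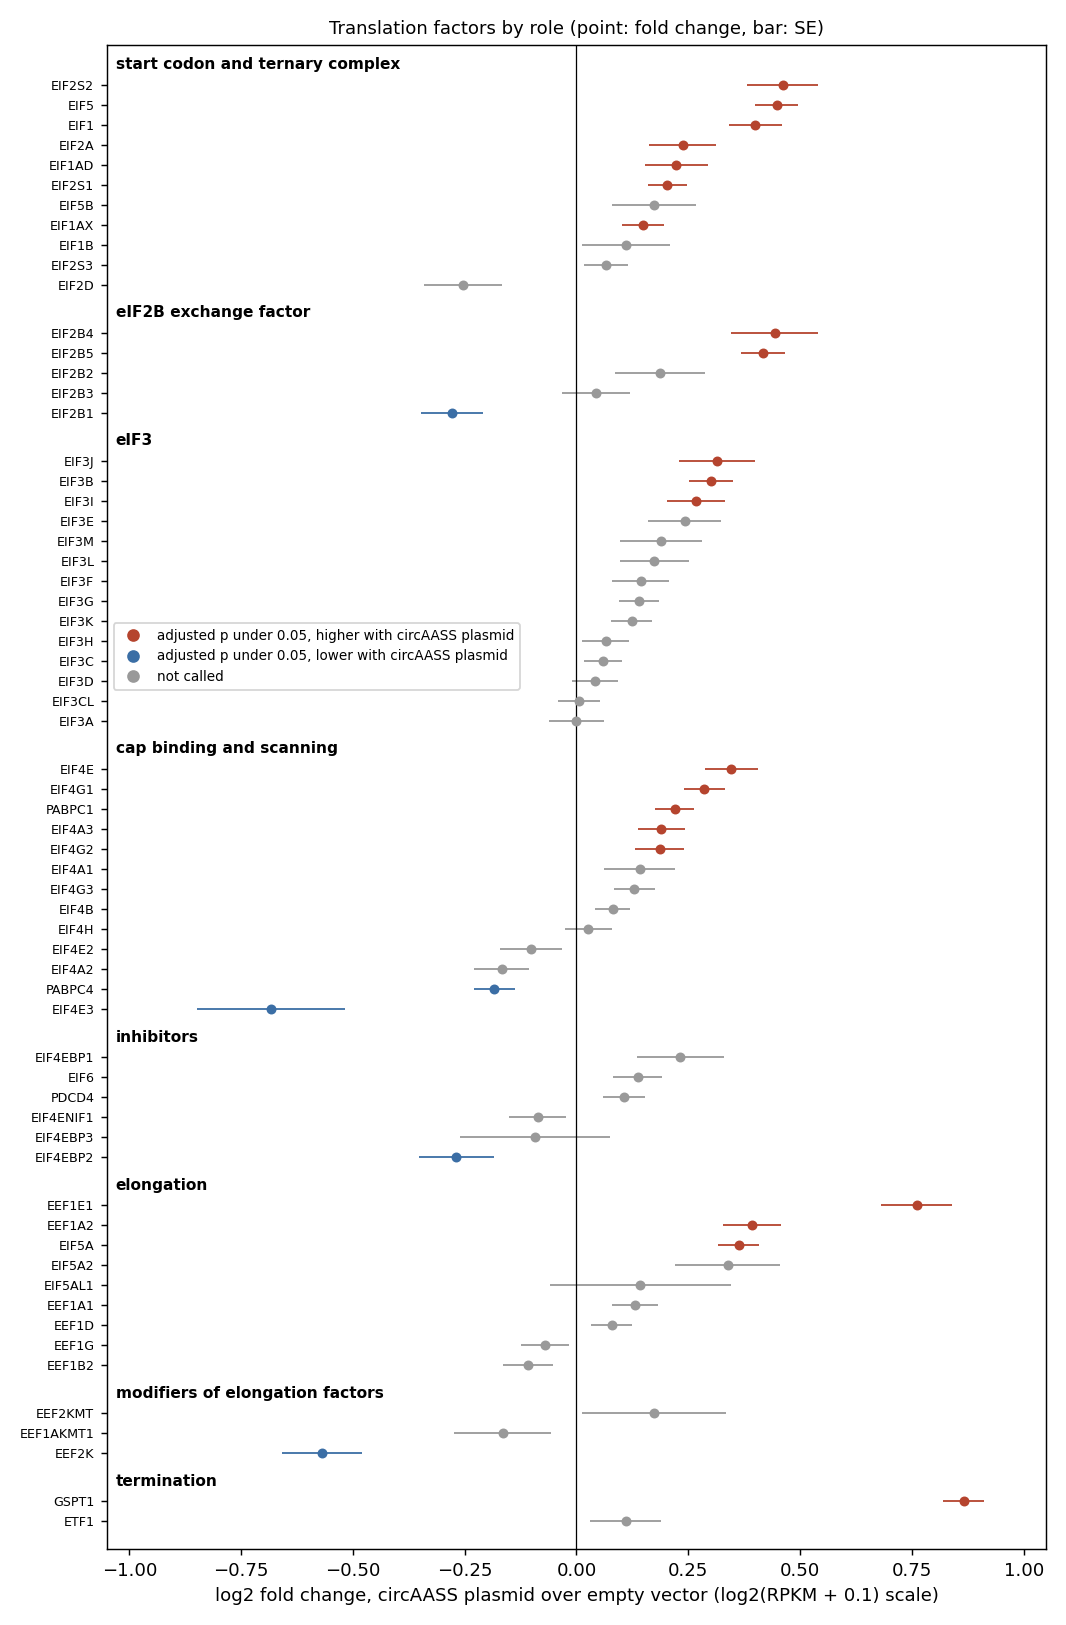
Log2 fold change of the 63 tested factors, circAASS plasmid over empty vector, on the log2(RPKM + 0.1) scale, grouped by role; points are estimates over 3 libraries a group and bars their standard errors. Red and blue points passed an adjusted p of 0.05, and the reader should see 7 red points in the start codon group, none in the inhibitors, and GSPT1 and EIF4E3 at the ends of the range (0.87 and -0.68, the second depending on the pseudocount).

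The libraries held 47384879 to 58179563 reads with circAASS and 45148425 to 52470055 reads with the empty vector. Of the proximal tubule markers LRP2, CUBN, AQP1 and HNF4A were at or near 0 in every library, 5 of the 13 in the table reached 1 RPKM (among them PAX8), and their summed level was 64.8 to 70.8 RPKM with circAASS and 54.1 to 54.6 RPKM with the empty vector. The epithelial markers KRT8, KRT18, KRT19 and EPCAM were expressed, CDH1 was near 0, and their sum was 320.8 to 360.1 RPKM with circAASS and 289.3 to 303.3 RPKM with the empty vector. KRT8 and KRT18 lay higher with circAASS (means of 149 and 107 RPKM, against 127 and 79.3 RPKM with the empty vector) and EPCAM lower (22.1 RPKM, against 26.8 RPKM with the empty vector), each without overlap. Of 14 markers of fibroblasts, endothelium, leukocytes, podocytes and the thick limb only COL1A1 reached 1 RPKM, with sums of 1.66 to 1.78 RPKM with circAASS and 1.62 to 1.83 RPKM with the empty vector. The 4 short structural RNAs RN7SK, RN7SL1, RN7SL2 and RNA5-8S5, taken here as signs of library quality, summed to 89.5 to 239.8 RPKM with circAASS and 48.6 to 66.4 RPKM with the empty vector, without overlap. The mitochondrial genome took 9.09% to 10.1% of reads with circAASS and 8.86% to 9.03% with the empty vector. The tubule and epithelial sums, the short RNAs and the mitochondrial share all lay higher with circAASS, beside every rise and fall described here, and their part in the results was not tested.

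Promoter sequence was examined for the 50 factors with an entry in the RefSeq promoter table (GRCh38.p14), over the 250 bases before the annotated start and on both strands, because a shared regulator is known for genes of this class: E-box letters CACGTG are bound by MYC and related factors. CACGTG, which reads the same on both strands, was in 12 of the 50 windows (24%), against 8.95% of 11132 windows of all tested genes and 6.34% of all 35116 windows. It was in 3 of 18 windows of factors that rose (16.7%), in 1 of 4 windows of factors that fell (25%) and in 8 of 27 windows of factors that did not pass (29.6%). The sites of the called factors are shown, with the E-box in capitals and 10 bases on each side, read 5′ to 3′ on the strand of the gene.
EEF2K, chr16:22206209-22206234, plus strand: tgggggcggcCACGTGagcgccacgc
EIF4A3, chr17:80147234-80147259, minus strand: agttccctttCACGTGacgaagagtg
EIF4E, chr4:98929190-98929215, minus strand: acatatccgtCACGTGgccagaagct
EIF4E, chr4:98929343-98929368, minus strand: acccatcggcCACGTGaccagtcctt
EIF4G1, chr3:184314452-184314477, plus strand: ctgtggctgtCACGTGacggggcggg
EIF4G1, chr3:184314529-184314554, plus strand: ctgcgccggtCACGTGggggcgccgg
EIF4E and EIF4G1 each held the letters at 2 places, and EEF2K, which fell, had 1 site at bases 59 to 54 before its start.

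The window of EEF2K is given at greater length, because EEF2K fell with the lowest p of the 5 and shares the E-box with factors that rose. These are 160 bases of chr16:22206118-22206277 on the plus strand, ending just before the RefSeq start, with the E-box in capitals.
EEF2K: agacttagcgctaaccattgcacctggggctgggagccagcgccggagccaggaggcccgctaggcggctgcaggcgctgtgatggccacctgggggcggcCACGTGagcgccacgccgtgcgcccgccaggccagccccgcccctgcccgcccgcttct
Letters of other known elements were searched in the same way. TGATGNAA, the composite site of ATF4, was in 0 of 50 windows, against 1.48% of windows of all tested genes and 3.14% of all windows. TGACGTCA, the cAMP response element, was in 0, against 2.74% of tested genes and 1.65% of all. CCGGAAG, the core of ETS sites, was in 9 windows (18%), against 14.9% of tested genes and 8.52% of all. The palindromic site of NRF1 was in 1 (2%), against 1.9% of tested genes and 1.03% of all. A match is a match of letters only, and a window without one says nothing of the factor.

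The factors that select the start codon and carry the initiator tRNA held the most rises, with 7 of 11 tested members higher and a median log2 fold change of 0.20. None was lower in limma, 1 fell at an unadjusted p of 0.05 and 1 in limma-voom on reads. With library size alone the counts were 3 higher and 1 lower, with a median of 0.13. Of all tested genes 16% were higher and 16.3% lower, and with library size alone 11.2% and 20.8%. The counts of every role group, each of few genes, are to be read beside these shares. The planned grouping held the 5 subunits of eIF2B together with these factors. Those subunits are counted apart here, with 2 higher and 1 lower. EIF2S2, the beta subunit of eIF2, is on chr20:34088298-34112332. It had 361.7, 345.2 and 320.5 RPKM in the circAASS libraries, against 283.3, 246.6 and 255.4 RPKM in the empty-vector libraries. The lowest circAASS library was above the highest empty-vector library, and the log2 fold change was 0.46 (SE 0.08, limma adjusted p = 0.00484). EIF2S1, the alpha subunit and the one that stress kinases phosphorylate, had 18.3, 18.1 and 18.5 RPKM with circAASS, against 16.4, 16.7 and 17.0 RPKM with the empty vector. The groups did not overlap, the rise was smaller (log2 fold change 0.20, SE 0.04, limma adjusted p = 0.0112), and it was lost with library size alone (0.0606). EIF2S3, the gamma subunit that binds GTP, averaged 57.8 ± 2.75 RPKM with circAASS and 58.1 ± 0.971 RPKM with the empty vector (SD, n = 3 each) and did not pass (limma adjusted p = 0.349). The 3 subunits form a complex of equal parts as proteins, whereas EIF2S2 RNA stood far above the other two per length in both groups.

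EIF5, the GTPase-activating protein of eIF2, and EIF1, which guards against wrong start codons, rose by similar amounts. EIF5 (chr14:103333544-103345025) had 22.3, 24.3 and 24.3 RPKM with circAASS, against 18.0, 17.8 and 18.7 RPKM with the empty vector, a log2 fold change of 0.45 (SE 0.05, limma adjusted p = 0.000835). EIF1 (chr17:41688885-41692668) had 22.7, 26.4 and 24.5 RPKM with circAASS, against 19.3, 19.5 and 19.7 RPKM with the empty vector, a log2 fold change of 0.40 (SE 0.06, limma adjusted p = 0.00280). In both genes all circAASS libraries were above all empty-vector libraries. The ratio of EIF5 to EIF1 was 0.963 ± 0.0407 with circAASS and 0.932 ± 0.0172 with the empty vector (SD, n = 3 each), and the groups overlapped in it. EIF1B, a close relative of EIF1, was at 3.33 ± 0.293 RPKM with circAASS and 3.23 ± 0.311 RPKM with the empty vector and did not pass (limma adjusted p = 0.425).

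The other 3 calls of the group were near the threshold. EIF1AX, which works with EIF1 in scanning, had 19.1, 19.6 and 19.0 RPKM with circAASS, against 18.5, 17.8 and 18.4 RPKM with the empty vector (log2 fold change 0.15, limma adjusted p = 0.0475). EIF2A, which can deliver initiator tRNA without eIF2, had 12.4, 13.5 and 11.3 RPKM with circAASS, against 10.88, 11.13 and 11.04 RPKM with the empty vector (0.24, adjusted p = 0.0464). EIF1AD, named for its eIF1A-like domain, had 3.43, 3.55 and 3.96 RPKM with circAASS, against 3.34, 3.25 and 3.21 RPKM with the empty vector (0.22, adjusted p = 0.0470). Groups did not overlap in these 3 genes, but the differences were small beside the empty-vector level. EIF1AX and EIF2A lost the call without any library other than circAASS library 3, with adjusted p of 0.0679 to 0.139 and of 0.0916 to 0.105. EIF1AD lost it without any of the 6 libraries (0.0549 to 0.131). EIF1AX, EIF2A and EIF1AD also lost it with library size alone (limma adjusted p = 0.247, 0.109 and 0.178). EIF5B, which joins the large subunit, averaged 112 ± 12.7 RPKM with circAASS and 104 ± 3.21 RPKM with the empty vector and did not pass (0.196), its circAASS libraries lying on both sides of the empty-vector ones. EIF2D, an alternative tRNA carrier, averaged 2.00 ± 0.134 RPKM with circAASS and 2.53 ± 0.146 RPKM with the empty vector (log2 fold change -0.25, limma adjusted p = 0.0602). It was called lower with library size alone (-0.32, adjusted p = 0.0289, the range over its alternatives being 0.0158 to 0.173).

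The 5 subunits of eIF2B, the exchange factor of eIF2, moved apart. EIF2B4 and EIF2B5 rose, EIF2B1 fell, and EIF2B2 and EIF2B3 did not pass; these counts were the same with library size alone. EIF2B5, the catalytic epsilon subunit (chr3:184135038-184146112), had 10.6, 10.7 and 10.5 RPKM with circAASS, against 8.25, 8.19 and 8.53 RPKM with the empty vector, a log2 fold change of 0.42 (SE 0.05, limma adjusted p = 0.00118). EIF2B4, the delta subunit (chr2:27364352-27370486), had 10.8, 8.51 and 8.88 RPKM with circAASS, against 7.35, 7.13 and 7.12 RPKM with the empty vector, a log2 fold change of 0.44 (SE 0.10, limma adjusted p = 0.0130). The first circAASS library was the highest in EIF2B4, and the other 2 circAASS libraries were also above every empty-vector library. EIF2B1, the regulatory alpha subunit (chr12:123620406-123633766), had 8.13, 8.16 and 7.73 RPKM with circAASS, against 11, 9.76 and 9.97 RPKM with the empty vector, a log2 fold change of -0.28 (SE 0.07, limma adjusted p = 0.0198). Its groups did not overlap, and the call was lost without circAASS library 3 (0.0678) or empty-vector library 1 (0.0565).

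Set against EIF2B1 in each library, EIF2B5 stood higher with circAASS. The ratio was 1.30, 1.31 and 1.36 with circAASS, against 0.7498, 0.8398 and 0.8557 with the empty vector, so the order of the 2 RNAs in RPKM turned round. That order depends on the lengths used. In reads EIF2B5 was above EIF2B1 in every library, with 2124, 2383 and 2552 against 1802, 1805 and 1897 in the empty-vector libraries. The ratio of EIF2B5 to EIF2B1 and the others given in the text were picked after the values were seen and are descriptions. EIF2B2 averaged 3.10 ± 0.148 RPKM with circAASS and 2.87 ± 0.394 RPKM with the empty vector (adjusted p = 0.197, limma), and 23.6% of its exon bases lie under another gene, so that its reads are uncertain. EIF2B3 averaged 4.13 ± 0.145 RPKM with circAASS and 4.22 ± 0.341 RPKM with the empty vector (adjusted p = 0.695, limma).

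**Figure D2:**
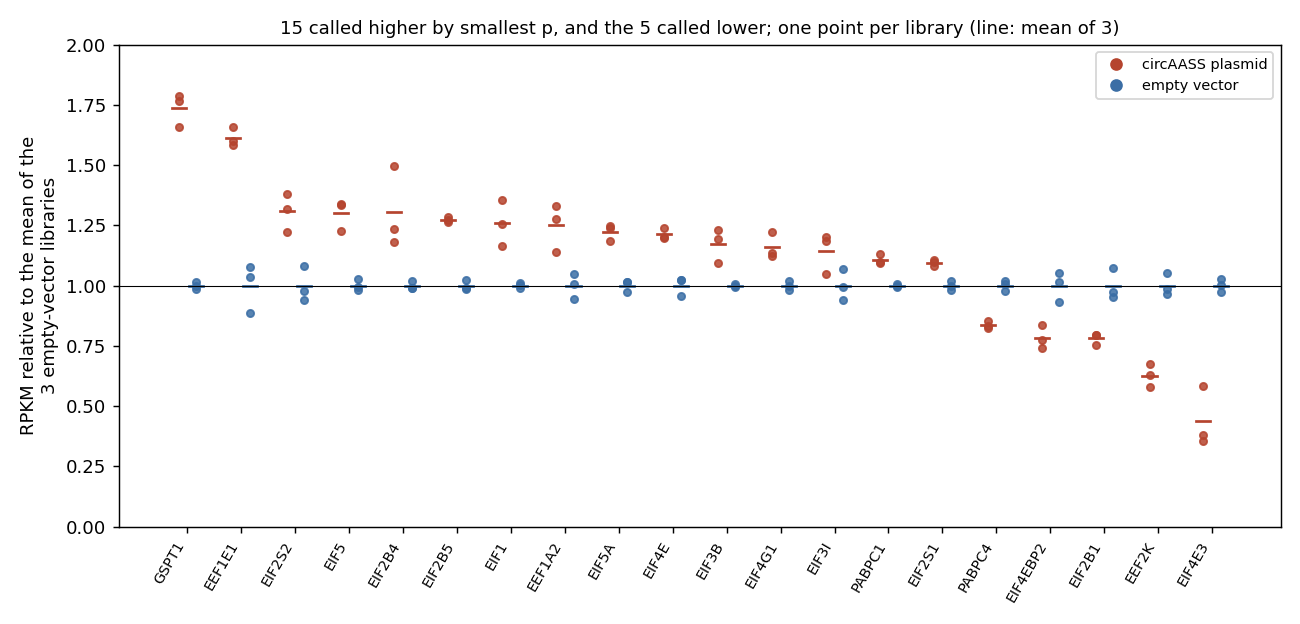
RPKM of 20 called factors in each library, divided by the mean of the 3 empty-vector libraries of that gene; red points are circAASS libraries, blue points empty-vector libraries, and short lines the means of 3. In EIF3I alone of the 20 do red and blue points overlap, and GSPT1, EEF1E1, EEF2K and EIF4E3 show the widest gaps.

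All 14 genes of eIF3, the scaffold that holds the small subunit and the other factors together, had positive fold changes, but only EIF3B, EIF3I and EIF3J passed; limma-voom on reads called 6 of them higher. The fold changes ran from 0.0001 to 0.31 with a median of 0.14. With library size alone 9 of the 14 were positive and the median was 0.07, so the common sign of the group rests on the scaling. EIF3B, a core subunit (chr7:2354086-2380745), had 35.7, 38.9 and 40.2 RPKM with circAASS, against 32.9, 32.4 and 32.6 RPKM with the empty vector, a log2 fold change of 0.30 (SE 0.05, limma adjusted p = 0.00391). EIF3I, which binds EIF3B, had 35.3, 40.5 and 39.9 RPKM with circAASS, against 31.6, 33.5 and 35.9 RPKM with the empty vector (0.27, SE 0.06, limma adjusted p = 0.0181). EIF3J, a loosely bound subunit, had 55.5, 52.1 and 47.0 RPKM with circAASS, against 46.5, 42.7 and 41.4 RPKM with the empty vector (0.31, SE 0.09, limma adjusted p = 0.0271). The groups did not overlap in EIF3B and EIF3J, whereas in EIF3I circAASS library 1 was below empty-vector library 3. EIF3I lost its call with empty-vector library 1 (0.0523) or 2 (0.0522) left out and with library size alone (0.0752), and EIF3J without circAASS library 1 or 2 or empty-vector library 2 or 3 (0.0578 to 0.0805).

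The most abundant eIF3 RNA had no fold change in either direction. EIF3A, the largest subunit and the second most abundant of the 65 RNAs, had 455.7, 438.0 and 420.5 RPKM with circAASS, against 484.0, 452.8 and 445.7 RPKM with the empty vector, and a log2 fold change of 0.00 (SE 0.06, limma adjusted p = 0.999). EIF3E and EIF3G came nearest to the threshold among the rest. EIF3E had 19.5, 23.8 and 21.9 RPKM with circAASS, against 17.9, 19.1 and 20.9 RPKM with the empty vector (0.24, limma adjusted p = 0.0563). EIF3G averaged 60.6 ± 0.716 RPKM with circAASS and 57.9 ± 1.65 RPKM with the empty vector (0.14, adjusted p = 0.0512). The fold changes of EIF3K, EIF3L, EIF3M, EIF3F, EIF3H, EIF3D, EIF3C and EIF3CL lay between 0.01 and 0.19, none past the test. EIF3C and EIF3CL are near-identical copies and share reads, and 51.8% of the exon bases of EIF3L lie under other genes, so the values of these 3 are uncertain.

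Among the factors that bind the cap, the poly(A) tail and unwind the leader, 5 of 13 rose and 2 fell. The shares of all tested genes were 16% higher and 16.3% lower. With library size alone 3 rose and 3 fell, against 11.2% and 20.8% of all tested genes. EIF4E, the cap-binding protein (chr4:98871684-98930637), had 7.22, 6.99 and 6.99 RPKM with circAASS, against 5.96, 5.57 and 5.95 RPKM with the empty vector, a log2 fold change of 0.35 (SE 0.06, limma adjusted p = 0.00480). EIF4G1, the main scaffold (chr3:184314495-184335358), had 81.8, 82.7 and 89.1 RPKM with circAASS, against 74.4, 72.8 and 71.5 RPKM with the empty vector (0.29, SE 0.05, limma adjusted p = 0.00382). PABPC1, the poly(A)-binding protein that contacts the scaffold, had 360.8, 372.5 and 361.9 RPKM with circAASS, against 327.7, 329.0 and 332.4 RPKM with the empty vector (0.22, SE 0.04, limma adjusted p = 0.00824). In these 3 genes every circAASS library was above every empty-vector library, and the calls held under every alternative tried. EIF4A3, a helicase of the exon junction complex, and EIF4G2, a scaffold that does not bind EIF4E, also passed (0.19 each, limma adjusted p = 0.0298 and 0.0375), with groups that overlapped. Both lost the call with library size alone and without circAASS library 2 or 3 or empty-vector library 2 or 3, and EIF4G2 also without empty-vector library 1; adjusted p were then 0.0660 to 0.0934 for EIF4A3 and 0.0615 to 0.107 for EIF4G2 in the fits without a library.

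Both falls of the group were in relatives of these proteins, PABPC4 and EIF4E3. PABPC4, a second cytoplasmic poly(A)-binding protein (chr1:39560816-39576790), had 33.4, 32.5 and 32.2 RPKM with circAASS, against 38.2, 39.4 and 39.8 RPKM with the empty vector, a log2 fold change of -0.18 (SE 0.05, limma adjusted p = 0.0218). EIF4E3, a weak cap binder, had 0.135, 0.0829 and 0.0881 RPKM with circAASS, against 0.226, 0.233 and 0.239 RPKM with the empty vector, which is 70, 52 and 45 reads against 110, 128 and 135 reads (-0.68, SE 0.17, limma adjusted p = 0.0182). Both fell without overlap of the groups, EIF4E3 at a low level. The size of the fall of EIF4E3 depends on the setting: its log2 fold change was -0.15 with a pseudocount of 1 RPKM, -1.07 with 0.01 RPKM and -1.16 in limma-voom on reads. PABPC4 lost its call without circAASS library 3 or any of the empty-vector libraries (0.0507 to 0.0868), and EIF4E3 without circAASS library 2 or 3 or empty-vector library 2 or 3 (0.0509 to 0.0560). The ratio of PABPC1 to PABPC4 was 11.2 ± 0.337 with circAASS and 8.43 ± 0.133 with the empty vector (SD, n = 3 each).

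The helicase pair EIF4A1 and EIF4A2 and their cofactors did not pass. EIF4A1 averaged 54.9 ± 6.31 RPKM with circAASS and 52.2 ± 2.29 RPKM with the empty vector (adjusted p = 0.210, limma), with 48.6% of its exon bases under other genes. EIF4A2 averaged 24.8 ± 1.58 RPKM with circAASS and 29.3 ± 1.06 RPKM with the empty vector, without overlap (log2 fold change -0.17, limma adjusted p = 0.0738), and was called lower with library size alone (-0.24, adjusted p = 0.0193, the lowest of its alternatives, the highest being 0.203). The cofactors EIF4B, at 163 ± 3.34 RPKM with circAASS and 162 ± 2.65 RPKM with the empty vector, and EIF4H, at 156 ± 7.84 RPKM with circAASS and 161 ± 3.71 RPKM with the empty vector, differed by less than their spread between libraries. EIF4G3, a second scaffold, and EIF4E2, a cap binder linked to repression and, in hypoxia, to cap-dependent translation, had fold changes of 0.13 and -0.10 (limma adjusted p = 0.0643 and 0.303), and 24.2% of EIF4E2 lies under another gene.

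None of the 6 inhibitors rose in limma, and 1 fell; 2 were higher at an unadjusted p of 0.05 (EIF4EBP1 and EIF6) and 1 was called higher by limma-voom on reads. EIF4EBP2, a 4E-BP that binds EIF4E when not phosphorylated (chr10:70404379-70428618), had 2.82, 2.50 and 2.61 RPKM with circAASS, against 3.14, 3.41 and 3.55 RPKM with the empty vector, a log2 fold change of -0.27 (SE 0.08, limma adjusted p = 0.0441). The groups did not overlap, but the call was lost in every fit without a library except that without circAASS library 1 (0.0568 to 0.135). EIF4EBP1, the 4E-BP with the highest RNA level here, had 73.9, 71.4 and 67.7 RPKM with circAASS, against 72.2, 62.9 and 56.5 RPKM with the empty vector (0.23, limma adjusted p = 0.110), and its groups overlapped. EIF4E set against EIF4EBP2 gave ratios of 2.56, 2.799 and 2.68 with circAASS, against 1.90, 1.63 and 1.68 with the empty vector. The sum of the 3 4E-BP RNAs over EIF4E was 10.9 ± 0.198 with circAASS and 12.2 ± 1.31 with the empty vector (SD, n = 3 each), with overlap; EIF4EBP1 makes up most of that sum.

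The remaining inhibitors did not pass. PDCD4, which blocks EIF4A, averaged 36.5 ± 0.674 RPKM with circAASS and 35.7 ± 0.562 RPKM with the empty vector. EIF6, which keeps free large subunits apart, averaged 22.7 ± 1.21 RPKM with circAASS and 21.7 ± 0.971 RPKM with the empty vector. EIF4ENIF1, which carries EIF4E to the nucleus and to P-bodies, averaged 5.30 ± 0.246 RPKM with circAASS and 5.92 ± 0.0895 RPKM with the empty vector. Limma's adjusted p were 0.126, 0.0918 and 0.339 for these genes and 0.703 for EIF4EBP3, and 73.4% of the exon bases of EIF4EBP3 and 29.5% of those of PDCD4 lie under other genes.

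**Figure D3:**
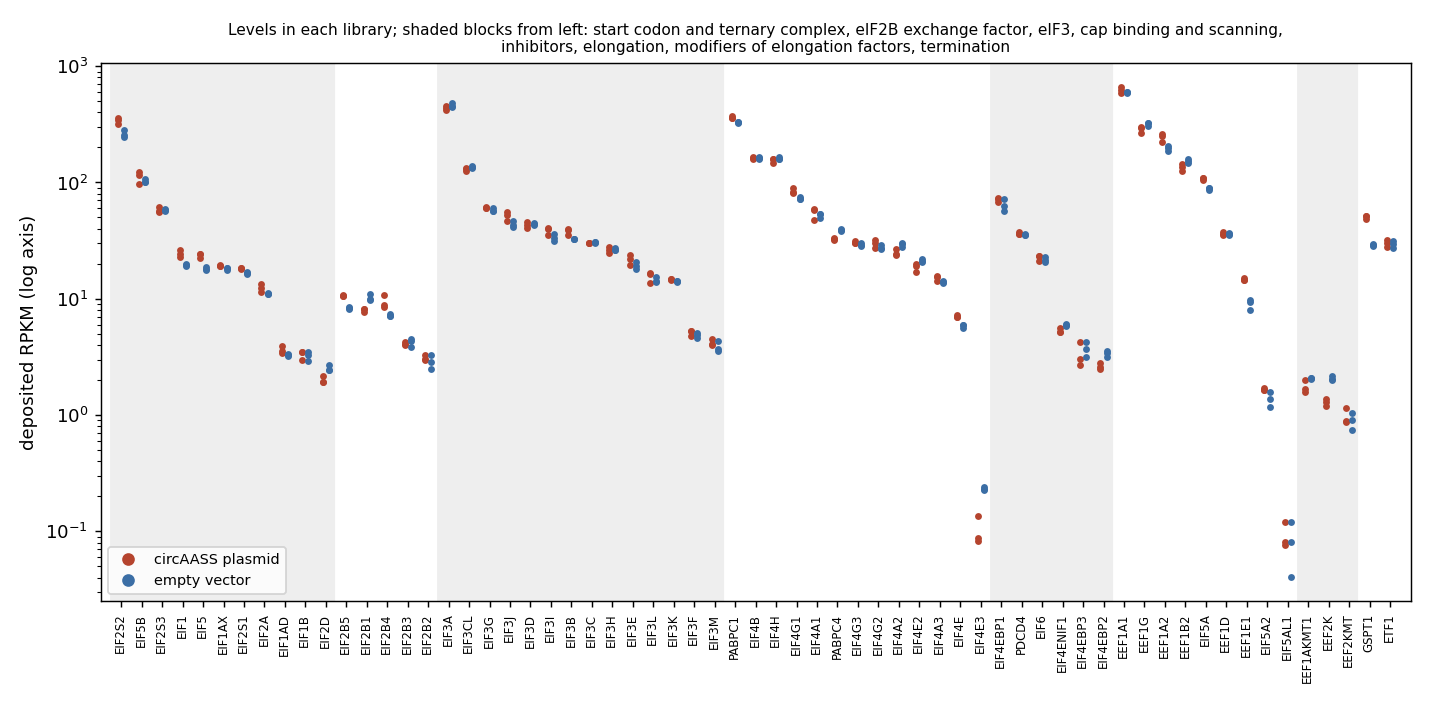
Deposited RPKM of the 63 tested factors in each library on a log axis, grouped by role and ordered by level within a role; red points are circAASS libraries and blue points empty-vector libraries. Levels span from EIF5AL1 and EIF4E3, near 0.1 RPKM, to EEF1A1, at a mean of 610 RPKM, and changes between groups are small beside that span.

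Of the elongation factors 3 of 9 rose, against 16% of all tested genes. The count was the same under library size alone, against 11.2% of all tested genes. None fell in limma, in limma-voom on reads or at an unadjusted p of 0.05. Limma-voom on reads called 5 higher, and 5 were higher at an unadjusted p of 0.05. EEF1E1, a small protein of the eEF1 family by name that sits in the aminoacyl-tRNA synthetase complex (chr6:8073360-8102578), had 14.35, 14.51 and 15.01 RPKM with circAASS, against 9.39, 9.75 and 8.05 RPKM with the empty vector. The log2 fold change was 0.76 (SE 0.08, limma adjusted p = 0.000795), next to the largest of the 63, and 18.7% of its exon bases are shared with other genes. EEF1A2, the form of the tRNA carrier known from muscle and neurons (chr20:63488012-63499322), had 224.5, 262.0 and 251.3 RPKM with circAASS, against 198.4, 185.9 and 205.9 RPKM with the empty vector (0.39, SE 0.06, limma adjusted p = 0.00422). EIF5A (chr17:7306999-7312463) had 110.2, 104.9 and 109.6 RPKM with circAASS, against 89.7, 86.1 and 89.7 RPKM with the empty vector (0.36, SE 0.05, limma adjusted p = 0.00160). In each of the 3 genes the groups did not overlap, and the calls held under every alternative.

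EEF1A1, the common form of the tRNA carrier and the most abundant of the 65 RNAs, had 589.3, 658.4 and 618.9 RPKM with circAASS, against 594.2, 593.5 and 602.9 RPKM with the empty vector, and did not pass (0.13, limma adjusted p = 0.0911). Limma-voom on reads called EEF1A1 higher (0.13, adjusted p = 0.0422). EEF1A2 thus stood at 0.395 ± 0.0128 of EEF1A1 with circAASS and at 0.330 ± 0.0146 of it with the empty vector (SD, n = 3 each). EEF1A1 has many pseudogenes, and reads could have been counted for them. The subunits of its exchange factor did not pass either. EEF1B2 had 126.1, 143.6 and 136.1 RPKM with circAASS, against 146.6, 154.3 and 158.9 RPKM with the empty vector (-0.11, limma adjusted p = 0.185). EEF1G had 268.5, 302.6 and 295.2 RPKM with circAASS, against 306.8, 322.7 and 326.7 RPKM with the empty vector (-0.07, limma adjusted p = 0.347). Groups did not overlap in these 2 genes as deposited, and 99.9% of the exon bases of EEF1G are shared with a gene annotated on the same strand. EEF1D was at 36.3 ± 0.975 RPKM with circAASS and 36.2 ± 0.685 RPKM with the empty vector, with 34.0% of its bases under other genes.

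EIF5A2, the second eIF5A gene, had 1.64, 1.63 and 1.72 RPKM with circAASS, against 1.37, 1.17 and 1.58 RPKM with the empty vector (0.34, SE 0.12, limma adjusted p = 0.0627). Its estimate was close to that of EIF5A, and the ratio of EIF5A to EIF5A2 was 65.1 ± 1.87 with circAASS and 65.3 ± 8.39 with the empty vector (SD, n = 3 each). EIF5AL1, a near-identical copy of EIF5A with 8 to 24 reads a library, did not pass (0.622).

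Among the enzymes that modify elongation factors, EEF2K fell. EEF2K is the kinase that phosphorylates eEF2 and thereby slows elongation (chr16:22206282-22288732). It had 1.19, 1.29 and 1.38 RPKM with circAASS, against 1.98, 2.03 and 2.16 RPKM with the empty vector, from 458 to 602 reads a circAASS library and 718 to 910 reads an empty-vector library. All circAASS libraries were below all empty-vector libraries, with a log2 fold change of -0.57 (SE 0.09, limma adjusted p = 0.00354), and the call held under every alternative, the only one of the 5 falls to do so; with a pseudocount of 1 RPKM the log2 fold change was -0.37. The methyltransferases EEF2KMT and EEF1AKMT1 had fold changes of 0.17 and -0.17 (limma adjusted p = 0.443 and 0.281), at 0.973 ± 0.156 RPKM and 1.76 ± 0.226 RPKM with circAASS and 0.897 ± 0.149 RPKM and 2.08 ± 0.0227 RPKM with the empty vector, and 29.3% of the exon bases of EEF2KMT lie under another gene.

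GSPT1, the GTPase eRF3a of termination, rose more than any other of the 63. On chr16:11868128-11916082, it had 48.2, 51.9 and 51.3 RPKM with circAASS, against 29.49, 29.01 and 28.63 RPKM with the empty vector, from 18528 to 24195 reads a circAASS library and 10677 to 12046 reads an empty-vector library. The groups lay far apart beside the spread within each, with a log2 fold change of 0.87 (SE 0.05, limma adjusted p = 0.000101). ETF1, its partner eRF1 that reads the stop codon, had 32.2, 27.8 and 30.4 RPKM with circAASS, against 31.4, 29.3 and 27.4 RPKM with the empty vector, and did not pass (0.11, limma adjusted p = 0.324). In the same libraries GSPT1 over ETF1 was 1.50, 1.87 and 1.68 with circAASS, against 0.939, 0.991 and 1.04 with the empty vector.

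**Figure D4:**
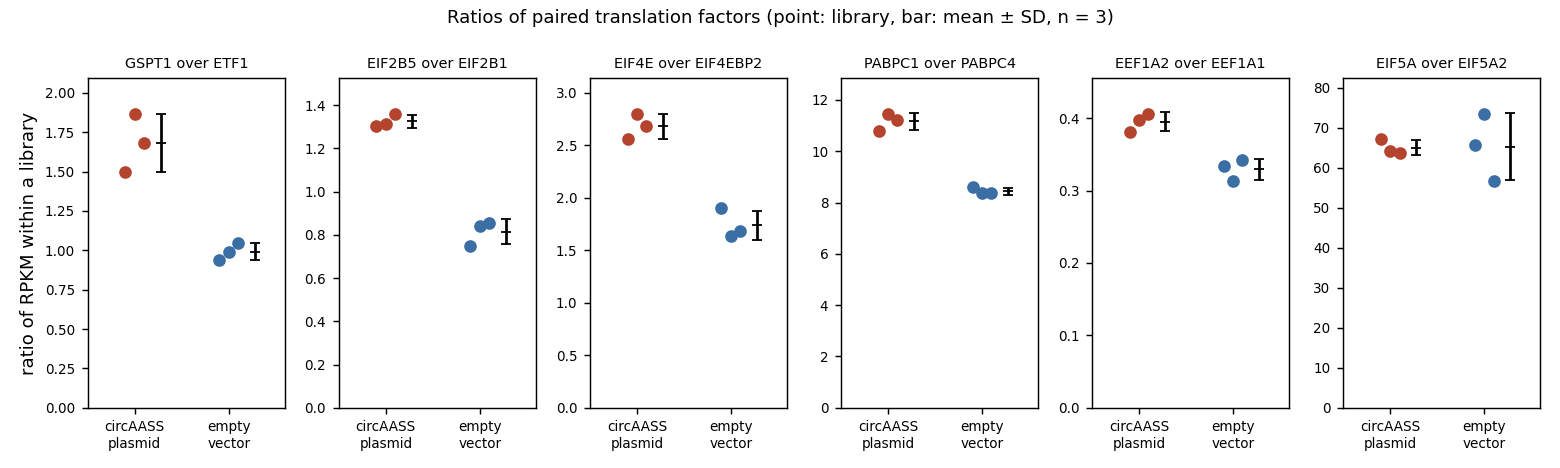
Ratios of RPKM of 6 pairs of factors within each library; points are libraries, bars the mean ± SD of 3, and each axis starts at 0. The groups are apart in 5 pairs, such as GSPT1 over ETF1 with means of 1.68 with circAASS and 0.991 with the empty vector, and overlap in EIF5A over EIF5A2, with means of 65.1 with circAASS and 65.3 with the empty vector.

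A list of 69 other genes of the translation pathway was read from the same fit. Of these, all tested, 18 rose, 8 fell and 43 did not pass, with a median log2 fold change of 0.01 and 37 positive. With library size alone 11 rose and 11 fell. Over all tested genes 16% were higher and 16.3% lower, and with library size alone 11.2% and 20.8%. Among genes averaging 1 RPKM or more, in a fit of those genes alone, 21.6% were higher and 17.6% lower. The smaller lists that follow hold few genes each, and their counts are to be read beside these shares. EEF2, which moves the ribosome along and is the substrate of EEF2K, had 452.8, 452.8 and 477.3 RPKM with circAASS, against 415.0, 435.2 and 431.2 RPKM with the empty vector, a log2 fold change of 0.18 (SE 0.04, limma adjusted p = 0.0162). Its groups did not overlap, but it no longer passed when empty-vector library 1 (0.0592) or 3 (0.0615) was left out, nor with library size alone (0.0940). The ratio of EEF2 to EEF2K was 380.3, 350.9 and 344.9 with circAASS, against 209.3, 214.8 and 199.4 with the empty vector.

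Of the genes that act on eIF2 phosphorylation 4 of 9 rose, against 16% of all tested genes and 21.6% of those averaging 1 RPKM or more. In limma, in limma-voom on reads or at an unadjusted p of 0.05, 0 fell. PPP1R15B, a subunit that guides phosphatase 1 to eIF2 at all times, had 8.06, 9.28 and 8.86 RPKM with circAASS, against 6.33, 5.69 and 5.43 RPKM with the empty vector (0.65, SE 0.08, limma adjusted p = 0.00146). PPP1R15A, its stress-induced counterpart, had 158.9, 144.3 and 143.0 RPKM with circAASS, against 116.4, 113.7 and 119.1 RPKM with the empty vector (0.43, SE 0.06, limma adjusted p = 0.00253). The catalytic subunit PPP1CC also rose (0.39, adjusted p = 0.00407). Of the kinases, EIF2AK3, which answers to unfolded protein, rose slightly (0.23, adjusted p = 0.0173), a call lost without circAASS library 3 or empty-vector library 2 or 3 (0.0527 to 0.0627) and with library size alone (0.0813). The kinases EIF2AK1, EIF2AK2 and EIF2AK4 had fold changes of 0.07, -0.04 and -0.03, none past the test. None of the 9 genes of the mTORC1 and MNK branch, which controls the 4E-BPs and EIF4E, passed in limma, with fold changes from -0.14 to 0.19 and RPS6KB1 nearest to the threshold (0.17, adjusted p = 0.0518). In that branch 1 gene was below an unadjusted p of 0.05, and limma-voom on reads called 2.

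In the list of ribosome reinitiation, rescue and recycling 3 of 11 genes rose and 1 fell. PELO, which opens stalled ribosomes, had 5.74, 6.47 and 6.22 RPKM with circAASS, against 3.76, 3.94 and 3.93 RPKM with the empty vector (0.72, SE 0.06, limma adjusted p = 0.000465). ABCE1, which then splits the subunits, rose as well (0.33, adjusted p = 0.00596). GSPT2, the paralog of GSPT1 that encodes eRF3b, had 4.85, 4.86 and 4.08 RPKM with circAASS, against 7.75, 8.75 and 6.98 RPKM with the empty vector (-0.68, SE 0.11, limma adjusted p = 0.00436). The 2 forms of eRF3 thus moved in opposite directions, with GSPT1 the more abundant per length in both groups. ZNF598, a sensor of collided ribosomes, was near the threshold (0.19, adjusted p = 0.0455) and lost the call without any library other than circAASS library 1 (0.0642 to 0.140). With library size alone ZNF598 lost it as well (limma adjusted p = 0.204).

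Around the cap, DDX3X, a helicase for structured leaders, had 64.3, 63.9 and 69.3 RPKM with circAASS, against 47.6, 44.2 and 46.9 RPKM with the empty vector (0.58, SE 0.05, limma adjusted p = 0.000401). ANGEL1, which binds EIF4E, had 0.488, 0.485 and 0.599 RPKM with circAASS, against 0.932, 0.996 and 0.966 RPKM with the empty vector (-0.71, SE 0.13, limma adjusted p = 0.00591). Of the 11 genes of this list 2 rose (DDX3X and DHX33) and 3 fell (ANGEL1, NCBP3 and CYFIP2), the calls of DHX33, NCBP3 and CYFIP2 being lost without at least 1 library. DHX33 lost it without empty-vector library 3 (0.0561) and with library size alone (limma adjusted p = 0.0541). NCBP3 lost it without circAASS library 3 or empty-vector library 1 or 2 (0.0543 to 0.0580). CYFIP2 lost it without any library other than circAASS library 3 (0.0765 to 0.112). Among the 7 poly(A)-binding partners 2 rose and 1 fell. PABPC1L had 3.71, 3.68 and 3.37 RPKM with circAASS, against 5.54, 6.30 and 5.85 RPKM with the empty vector (-0.63, SE 0.08, limma adjusted p = 0.00157). LARP4, which binds poly(A) and PABPC1, rose (0.41, adjusted p = 0.00442), and so did PAIP2, an inhibitor of PABPC1 (0.23, adjusted p = 0.0320). Of the exon bases of PAIP2, 21.0% lie under other genes. Its call was lost without circAASS library 1 or 2 or empty-vector library 2 or 3 (0.0703 to 0.0958). It was also lost with library size alone (limma adjusted p = 0.0609). PABPC1 rose, and PABPC4 and PABPC1L fell, in the same libraries.

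Both factors for selenocysteine in the list, an amino acid read at a recoded stop codon, fell. SECISBP2 had 3.51, 3.51 and 3.48 RPKM with circAASS, against 5.09, 5.03 and 4.65 RPKM with the empty vector (-0.41, SE 0.07, limma adjusted p = 0.00444). EEFSEC, the elongation factor for that tRNA, had 0.551, 0.596 and 0.767 RPKM with circAASS, against 1.13, 0.955 and 1.10 RPKM with the empty vector (-0.60, SE 0.15, limma adjusted p = 0.0181), which did not hold once empty-vector library 1 (0.0586) or 3 (0.0564) was left out. Of the 9 genes that modify eIF5A or eEF2, 2 rose. DPH2, an enzyme of diphthamide synthesis, had 2.93, 3.17 and 3.16 RPKM with circAASS, against 1.94, 2.27 and 2.19 RPKM with the empty vector (0.59, SE 0.08, limma adjusted p = 0.00241). DPH3 also rose (0.34, adjusted p = 0.0342), but only empty-vector library 3 could be left out without losing the call (0.0545 to 0.0891 without another library). The call of DPH3 was also lost with library size alone (limma adjusted p = 0.0806). DHPS and DOHH, which make the hypusine of eIF5A, did not pass (0.03 and 0.31, adjusted p = 0.709 and 0.127), and 41.9% of the exon bases of DHPS lie under other genes.

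The mitochondrial translation factors, which serve another ribosome, held 4 rises and 1 fall among 10 genes. MTIF2, an initiation factor, had 11.8, 12.4 and 10.9 RPKM with circAASS, against 15.7, 15.7 and 17.1 RPKM with the empty vector (-0.39, SE 0.07, limma adjusted p = 0.00547). MTIF3, another by name, had 8.01, 9.70 and 7.56 RPKM with circAASS, against 12.06, 10.13 and 11.4 RPKM with the empty vector. Its groups did not overlap, but it did not pass (-0.34, limma adjusted p = 0.0522). Limma-voom on reads called 2 genes of this list lower. TUFM, the mitochondrial tRNA carrier, had 67.8, 72.4 and 69.0 RPKM with circAASS, against 62.6, 62.1 and 62.5 RPKM with the empty vector (0.23, SE 0.05, limma adjusted p = 0.00837). MTRF1L, a release factor, rose (0.37, adjusted p = 0.00835) with 34.8% of its exon bases under other genes. MTRF1 rose as well (0.42, adjusted p = 0.0198), a call lost without circAASS library 3 (0.0630) or empty-vector library 3 (0.0606). C12orf65 also rose (0.24, adjusted p = 0.0269). Its call was lost without any library other than circAASS library 3 (0.0588 to 0.0728) and with library size alone (limma adjusted p = 0.0652). The initiation factor MTIF2 and the tRNA carrier TUFM thus moved in opposite directions in the same libraries.

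**Figure D5:**
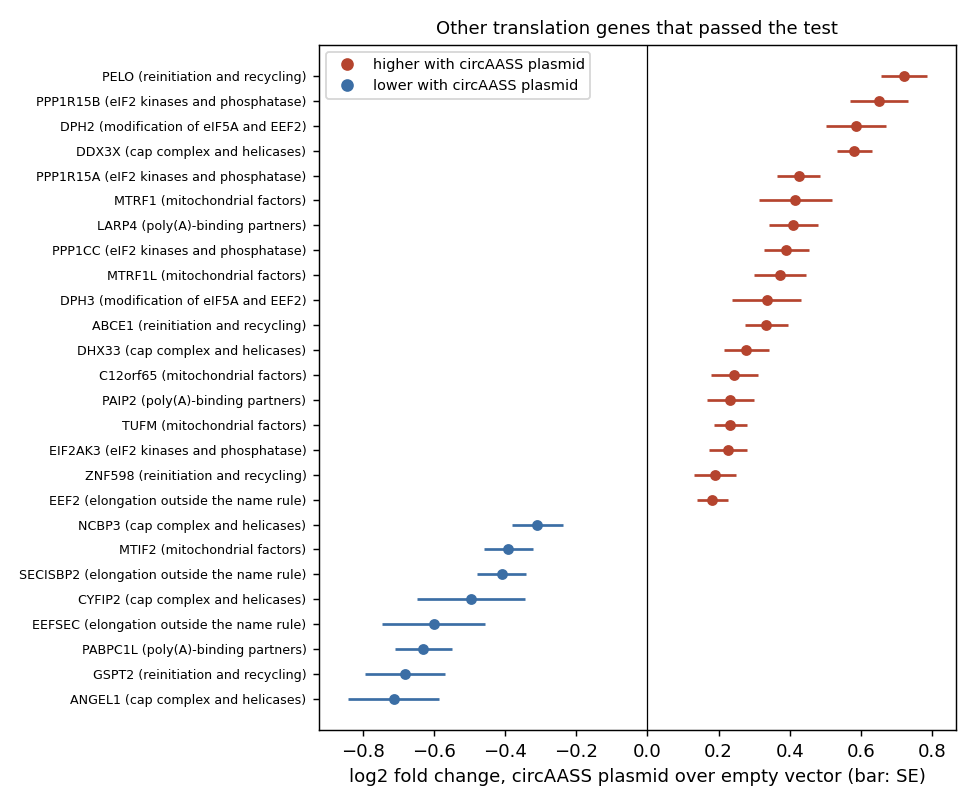
Log2 fold change, circAASS plasmid over empty vector, on the log2(RPKM + 0.1) scale, of the 26 other genes of translation that passed an adjusted p of 0.05, with the list of each gene in brackets; bars are standard errors, red points rises and blue points falls. PELO (0.72) and ANGEL1 (-0.71) are at the ends, and EEF2 (0.18) is the smallest rise.

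Variation within groups was small for most factors. The coefficient of variation over 3 libraries had a median of 5.57% with circAASS and 2.85% with the empty vector, and was highest in EIF4E3 with circAASS (28.3%) and in EIF5AL1 with the empty vector (48.8%), both of few reads. The order of levels was much the same in both groups. EEF1A1, EIF3A, PABPC1, EEF1G and EIF2S2 were the 5 most abundant, with means over all 6 libraries of 610, 449, 347, 304 and 302 RPKM, and EEF1A1 alone made up 14.7% ± 0.531 of the summed RPKM of the 65 genes with circAASS and 14.9% ± 0.144 with the empty vector (SD, n = 3 each). EEF1G and EIF2S2 stood in the opposite order in the groups, EIF2S2 being higher with circAASS and EEF1G higher with the empty vector. As bulk libraries, these data do not tell fewer cells with an RNA from less RNA per cell.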

How the data were processed

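Stranded mRNA libraries of total RNA were read from both ends (NovaSeq), per the labels' protocols. The submitters' processing notes name Trimmomatic 0.36, featureCounts, Subread 1.5.1, edgeR 3.12.1 and GRCh38; the aligner, annotation and strand setting were not given in the sources used here, so reads of overlapping, antisense or copied genes can lie with the wrong gene. The values the authors deposited proved to be RPKM. Whole reads were worked out from them with the exon lengths of GENCODE 29 (GRCh38): in 22385 of 24697 genes with an annotated length (90.6%) all 6 values were whole within 0.02 reads, a length was found for 12650 others (EIF3F, EIF6, EEF1A2 and EIF2B5 among them), and 99.90% to 99.91% of library totals were recovered. A found length is the smallest that made the values whole, so reads of such genes can be understated. Of read numbers from 1 to 20, 78.6% were even, as when mates are counted separately, so counting error is larger than reads imply. Names turned into dates (28) were left out.

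The test was limma 3.58.1 (R 4.3.3) on log2(RPKM + 0.1) after trimmed-mean scaling (30% of ratios, 5% of levels) with intensity trend and robust estimation, for genes reaching 10 reads, scaled to the median library, in 3 libraries and 15 reads in all; fold changes of low genes are understated. Two-sided p-values were adjusted by Benjamini-Hochberg across the tested genes (threshold 0.05). The code was tested on simulated data. Groups came from sample titles. The factors, roles, lists and motifs were chosen with earlier results of these data known, so no pattern is independent support. Members were named in full where they were among up to 15 with the smallest p in each direction, the 5 most abundant or in a count of 5 or fewer; from the list of other genes, EEF2 and the 4 smallest p in each direction; other values were chosen after they were seen. Promoters are RefSeq's on GRCh38.p14; gene positions are GENCODE's, counted from 1. The level of 1 marker gene is not reported here.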

Additional observations from a re-analysis of the deposited data

How the results depend on the processing

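Under 15 alternatives (2 scalings, 2 pseudocounts, 2 filters, 2 variance models, the repeat number as a block, and 6 fits without a library), 14 of the 26 called factors kept their call throughout, 13 of them higher and EEF2K lower, and 0 reversed; 15 kept it in all 6 fits without a library. The number of factors called lower was 3 with no filter and 3 with neither trend nor robust estimation, against 5. Pathway genes called higher were 11 with library size alone, against 18, and the median of the factors was then 0.0691, against 0.142. Limma-voom on reads called 34 factors, 25 of them among the 26. Without a library, factors called higher were 14 to 20, factors called lower 1 to 5, pathway genes higher 11 to 15 and lower 5 to 8, all genes higher 2190 to 2791 and lower 2013 to 2906, and the median 0.13 to 0.17. With circAASS library 3 left out the factors called lower were 1, and 2 without any one of the empty-vector libraries. With 2 libraries in a group the fit has fewer degrees of freedom. Titles number the repeats 1 to 3 in each group, but same-numbered libraries did not deviate together (correlations of -0.005, -0.024 and 0.023). With so few libraries, these values show no strong shared deviation but cannot settle whether the libraries were paired. A fit with the replicate block called 23 factors, 19 higher and 4 lower, 21 of them among the 26. Counting depth limits EIF4E3, EIF5AL1, EIF4E1B and EIF2S3L.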
